A study of Arabidopsis thaliana with 15 samples.

Results

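AT2G43570, which carries the symbol CHI and is annotated as a putative chitinase, and AT2G43620 are chitinase genes of Arabidopsis thaliana that lie in one stretch of chromosome 2. Each was read by 1 probe set, and they are 2 of the 13286 genes that the platform's annotation and the gene table pair with a probe set. The genes were chosen by their measured rise in rps2 leaves at 10 h in earlier results of these data, so every value of CHI or AT2G43620 that rests on rps2 arrays is given here as a description, with no test. Other genes named below were tested in all comparisons, except the genes most alike to each member, whose values are given with no test.

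Transcripts were measured by array in mature leaves of plants aged 4 weeks. The 5 groups were rps2 mutant leaves at 0 and 10 h and wild-type Col-0 leaves at 0, 6 and 10 h, with 3 biological replicates each and 15 arrays in all. Per the labels all leaves, the 0 h ones included, received Pseudomonas syringae pv. maculicola (Psm) carrying the effector AvrRpt2, at an OD of 0.01 in 10 mM MgSO4. The plants grew under 12 h of light and 12 h of dark. The labels do not name the rps2 allele and give no mock-infiltrated group or clock time, so the bacteria, the infiltration itself and time of day cannot be told apart in the comparisons over time.

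Chitinases cut chitin, the polymer of fungal cell walls and insect cuticles, and many plants make them as pathogenesis-related proteins after attack by microbes of several kinds. The plant enzymes fall into unrelated folds, of which glycoside hydrolase families 18 and 19 are the main ones, and both genes here are placed in family 19 from general knowledge, as are the other chitinase genes below in their families. RPS2 is the intracellular receptor that detects what AvrRpt2 does inside the plant cell, and plants without it lack that form of recognition but still perceive the bacterium by other means.

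A deposited value is a log2 difference from the median of the same probe set over all arrays, so it can be compared between arrays but not between genes, and it does not show whether a low value lies above background. For the same reason the labelled tissue could not be checked against marker levels. One array stood apart: rps2 10 h replicate 3 differed from the rps2 0 h arrays by an SD of 0.17 to 0.20 over all probe sets and from the other rps2 10 h arrays by 0.942 and 0.949. The median SE over all probe sets was 0.12 with that array and 0.0976 without it, so results are given both ways where they differ. The poly-A spike-in controls, which are normally added to the RNA before labelling, averaged 0.98 ± 0.13 (SD, n = 3) on the Col-0 10 h arrays and at most 0.12 on any other array. Setting the arrays to these controls shifts all Col-0 changes at 10 h against 0 h by -1.08.

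CHI was low in every 0 h leaf and high in leaves at 6 and 10 h, apart from rps2 10 h replicate 3. In rps2 it stood at 0, 0.46 and -6.80 on the 10 h arrays of replicates 1, 2 and 3, against -6.26, -6.52 and -6.40 at 0 h. In Col-0 it stood at -5.00, -5.83 and -6.32 at 0 h, at 1.4, 1.65 and 1.31 at 6 h, and at 1.87, 1.98 and 1.86 at 10 h. The Col-0 10 h arrays were the highest, and all lay above the 6 h arrays, as held for 22.9% of the 22746 probe sets tested. Replicates 1 and 2 of rps2 at 10 h lay below both. The 0 h arrays of the genotypes overlapped, and rps2 10 h replicate 3 fell below them all.

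AT2G43620 was also low in every 0 h leaf, with a different order of the groups at 6 and 10 h. In rps2 it stood at 1.4, 1.54 and -5.71 on the 10 h arrays, against -5.97, -6.31 and -5.18 at 0 h. In Col-0 it stood at -4.25, -5.62 and -4.38 at 0 h, at 1.63, 2.15 and 1.73 at 6 h, and at 0.76, 0 and 0.53 at 10 h. Here the Col-0 6 h arrays were the highest, replicates 1 and 2 of rps2 at 10 h lay just under them, and the Col-0 10 h arrays lay below both, with no overlap among these groups. The Col-0 10 h arrays of 27.7% of all probe sets lay below the 6 h arrays in the same way. At 0 h the genotypes overlapped again, and replicate 3 of rps2 at 10 h lay within the range of the rps2 0 h arrays.

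**Figure D1:**
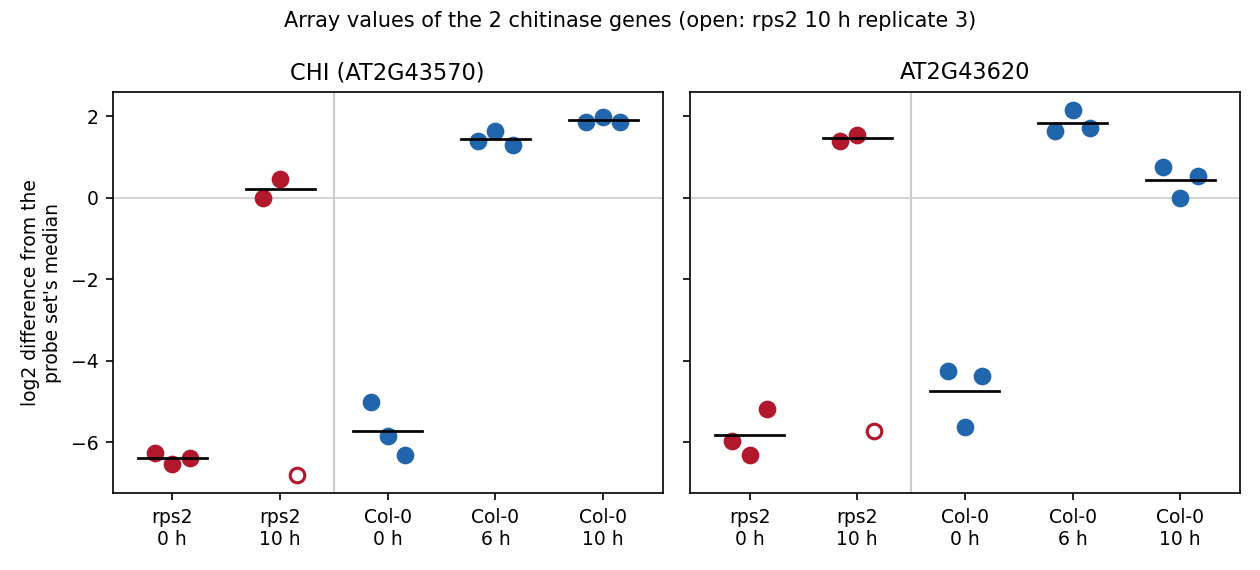
Log2 value of CHI and AT2G43620 relative to the median of each probe set (vertical axis) on every array of the 5 groups (horizontal axis). Points are arrays, black lines are group means, and the open point is rps2 10 h replicate 3, which is left out of its group's mean; CHI is highest in Col-0 at 10 h, and AT2G43620 in Col-0 at 6 h.

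The Col-0 arrays, which did not serve to choose the genes, show how leaves with RPS2 changed after infiltration. At 6 h against 0 h, the log2 value of CHI rose by 7.17 ± 1.36 (SE, 3 arrays in each group, limma adjusted p = 5.30e-04), a 144-fold change. AT2G43620 rose by 6.59 ± 1.41 (limma adjusted p = 0.00135), or 96.1-fold. Both members rose, where 25.5% of the 22746 probe sets tested did. By size of the 6 h rise they ranked 17 and 53 among those probe sets.

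At 10 h against 0 h in Col-0, CHI rose by 7.62 ± 1.36 (limma adjusted p = 2.74e-04), or 197-fold, and AT2G43620 rose by 5.18 ± 1.41 (limma adjusted p = 0.00617), or 36.2-fold. Again both rose, where 29.2% of the probe sets did, and they ranked 30 and 317. Without rps2 10 h replicate 3 the changes are the same and their SE is 0.23 for CHI and 0.33 for AT2G43620. With the arrays set to the poly-A controls, the 10 h rise was 6.54 for CHI and 4.10 for AT2G43620. These are bulk leaf samples, in which fewer cells of a type and less RNA per cell cannot be told apart.

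Between 6 and 10 h in Col-0, the values of AT2G43620 and CHI had opposite signs. AT2G43620 was lower at 10 h than at 6 h by 1.41 (log2 change -1.41 ± 1.41, adjusted p = 0.514 by limma over all arrays). Without rps2 10 h replicate 3 this fall had an SE of 0.33 and passed the threshold (limma adjusted p = 0.00251), where 24.8% of the probe sets fell. CHI was at 0.45 ± 1.36 (adjusted p = 0.849 by limma), and at 0.45 ± 0.23 without that array (adjusted p = 0.139). The sign of the CHI value depends on the scaling: it was -0.67 on the poly-A scale and -0.12 after repeated quantile normalisation, while AT2G43620 stayed negative at -2.52 and -1.46.

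The difference between the genes on the same array is free of any shift of a whole array. AT2G43620 less CHI was 0.75, 0.21 and 1.94 on the Col-0 0 h arrays, 0.23, 0.50 and 0.42 at 6 h, and -1.11, -1.98 and -1.33 at 10 h. The zero of this difference is set by the centring of each probe set, so only differences between arrays can be read. The 10 h arrays lay below all other Col-0 arrays. The mean was 0.97 ± 0.88 at 0 h, 0.38 ± 0.14 at 6 h and -1.47 ± 0.45 at 10 h (SD, n = 3 each). The 10 h mean less the 6 h mean was -1.86 and less the 0 h mean -2.44, and both gave p = 0.1 by a two-sided exact permutation test, the smallest that 3 arrays against 3 allow (0.15 after Benjamini-Hochberg adjustment over 3 tests). The 6 h mean less the 0 h mean was -0.59 (exact permutation p = 0.4, adjusted 0.4), with the 0 h and 6 h arrays overlapping. In rps2 the difference was 1.4, 1.08 and 1.09 at 10 h, against 0.29, 0.21 and 1.22 at 0 h, and all rps2 arrays lay above the Col-0 10 h arrays.

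**Figure D2:**
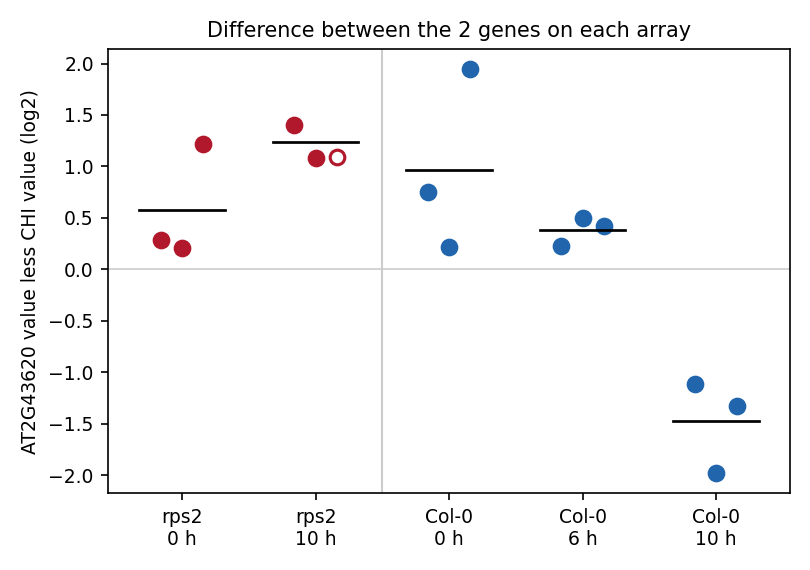
AT2G43620 value less CHI value on the same array, on the log2 scale (vertical axis), for each array of the 5 groups (horizontal axis). Points are arrays, black lines are group means and the open point is rps2 10 h replicate 3, left out of its mean; the 3 Col-0 10 h arrays lie between -1.98 and -1.11, below every other array.

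At 0 h the mean of both genes was lower in rps2 than in Col-0. Low rps2 0 h values are part of the rise that chose the genes, so these differences are a description. CHI averaged -6.39 ± 0.13 in rps2 and -5.72 ± 0.67 in Col-0 (SD, n = 3 each), a log2 difference of -0.68 ± 1.36 (SE). AT2G43620 averaged -5.82 ± 0.58 in rps2 and -4.75 ± 0.76 in Col-0, a difference of -1.07 ± 1.41 (SE). Without rps2 10 h replicate 3 the differences were the same, with an SE of 0.23 for CHI and 0.33 for AT2G43620. The arrays of the genotypes overlapped for both genes. The spread among Col-0 0 h arrays was 1.32 for CHI and 1.37 for AT2G43620 from lowest to highest, against 0.35 and 0.52 at 6 h.

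In rps2 the change between 0 and 10 h is the one that led to the choice of these genes. CHI was higher at 10 h by 6.62 ± 0.26 without replicate 3 (n = 2 at 10 h), and by 4.28 ± 1.36 with it. AT2G43620 was higher by 7.29 ± 0.37 without replicate 3 and by 4.90 ± 1.41 with it. In the fit without replicate 3, in which 21.2% of the probe sets rose, these changes ranked 16 and 6. Replicates 1 and 2 lay far above every rps2 0 h array for both genes, and replicate 3 did not.

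At 10 h, without replicate 3, the genotypes differed in opposite directions for the genes. CHI averaged 0.23 ± 0.32 in rps2 (SD, n = 2) and 1.90 ± 0.07 in Col-0 (SD, n = 3), a log2 difference of -1.67 ± 0.26 (SE). AT2G43620 averaged 1.47 ± 0.10 in rps2 (n = 2) and 0.43 ± 0.39 in Col-0 (n = 3), a difference of 1.04 ± 0.37 (SE). The rps2 arrays lay below all Col-0 arrays for CHI, as for 37.8% of the probe sets, and above them for AT2G43620, as for 31.7%. The 10 h change of rps2 less that of Col-0 was -0.998 ± 0.35 for CHI and 2.11 ± 0.49 for AT2G43620. With replicate 3 kept, the differences at 10 h were -4.02 ± 1.36 and -1.35 ± 1.41, and the differences of the changes were -3.34 ± 1.92 and -0.28 ± 1.99, so the sign for AT2G43620 rests on that array. On the poly-A scale without replicate 3, CHI in rps2 differed from Col-0 by -0.44 and AT2G43620 by 2.27, and the differences of the changes were 0.40 and 3.51, so for CHI the sign of the difference of the changes turns with the scaling.

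The stretch between the genes holds 6 protein-coding genes in the TAIR10.1 gene order, counting both ends, and each of the 6 had a probe set. The 4 genes between them, AT2G43580, AT2G43590, AT2G43600 and AT2G43610, are likewise taken as family 19 chitinase genes, a role assigned from general knowledge since the gene table gives them no description. In Col-0 2 of the 4 rose at 6 h and at 10 h and none fell, where 25.5% of all probe sets rose at 6 h, and 29.2% rose and 30.5% fell at 10 h. AT2G43590 stood at 0, 0.08 and -2.94 in rps2 at 10 h, against -3.32, -2.72 and -2.65 at 0 h. In Col-0 it stood at -2.43, -2.38 and -2.42 at 0 h, at 1.12, 1.32 and 1.04 at 6 h, and at 0.71, 0.83 and 1.44 at 10 h. Apart from rps2 10 h replicate 3, leaves at 6 and 10 h lay above all 0 h leaves, and the Col-0 6 and 10 h arrays overlapped. AT2G43590 rose by 2.93 ± 0.20 in rps2 without replicate 3 (limma adjusted p = 8.67e-09), and in Col-0 by 3.57 ± 0.60 at 6 h and 3.41 ± 0.60 at 10 h (limma adjusted p = 1.94e-04 and 2.40e-04). With replicate 3 kept its rps2 change was 1.94 ± 0.60 (adjusted p = 0.0521 by limma), and 0% of the 22746 probe sets passed in that limma comparison in either direction.

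AT2G43580, next to CHI, changed in Col-0 with smaller steps. It stood at -0.02, 0.0010 and -0.32 in rps2 at 10 h, against -0.20, -0.16 and -0.41 at 0 h. In Col-0 it stood at -0.13, 0 and -0.35 at 0 h, at 1.10, 0.62 and 0.50 at 6 h, and at 1.47, 2.09 and 1.47 at 10 h. The Col-0 groups did not overlap. The 10 h arrays lay above the 6 h arrays in the same way for 22.9% of all probe sets. AT2G43580 rose by 0.90 ± 0.19 at 6 h and by 1.83 ± 0.19 at 10 h against 0 h (limma adjusted p = 0.00128 and 2.09e-06). In rps2 its change without replicate 3 was 0.25 ± 0.19 (adjusted p = 0.319 by limma). The 10 h change of rps2 less that of Col-0 was -1.69 ± 0.27 over all arrays (limma adjusted p = 1.96e-04), where 22.4% of all probe sets passed below 0 and 22.1% above it, and -0.32 on the poly-A scale, where it did not pass.

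AT2G43600 and AT2G43610 did not pass the threshold in any of the 7 comparisons over all arrays, with Col-0 10 h changes of 0.09 ± 0.08 and 0.23 ± 0.14; on the poly-A scale these were -0.99 and -0.85 and passed. AT2G43610 rose at 6 h without rps2 10 h replicate 3, by 0.34 ± 0.12 (limma adjusted p = 0.0221). The names of these probe sets carry no suffix for probes shared between transcripts. Cross-hybridisation between near-identical copies was not tested, and values of related genes are uncertain to that extent.

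Outside the stretch, the gene order held 10 entries on each side, of which 9 genes in all had a probe set. At 10 h in Col-0, 1 of these 9 rose and 4 fell, where 29.2% of all probe sets rose and 30.5% fell. AT2G43640, after AT2G43620 in the gene order, rose by 1.20 ± 0.10 in rps2 without replicate 3 (limma adjusted p = 8.68e-08) and by 1.28 ± 0.21 in Col-0 (limma adjusted p = 1.36e-04). AT2G43550, before CHI in the gene order, ran the other way in Col-0. It stood at 3.96, 3.23 and -0.07 in rps2 at 10 h, against 0.39, 0 and 0.20 at 0 h, and in Col-0 at 3.63, 3.05 and 3.49 at 0 h, -1.95, -1.60 and -1.67 at 6 h, and -1.61, -1.57 and -0.81 at 10 h. It rose by 3.40 ± 0.25 in rps2 without replicate 3 (limma adjusted p = 1.98e-08) and fell by 4.72 ± 0.74 in Col-0 at 10 h (limma adjusted p = 8.62e-05). AT2G43535 rose by 1.38 ± 0.19 in rps2 without replicate 3 and fell by 2.39 ± 0.32 in Col-0 (limma adjusted p = 2.17e-05 and 2.31e-05). AT2G43560, the entry next to CHI outside the stretch, fell in both genotypes, by 0.85 ± 0.10 in rps2 without replicate 3 and by 2.80 ± 0.18 in Col-0 (limma adjusted p = 2.36e-06 and 2.80e-08).

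**Figure D3:**
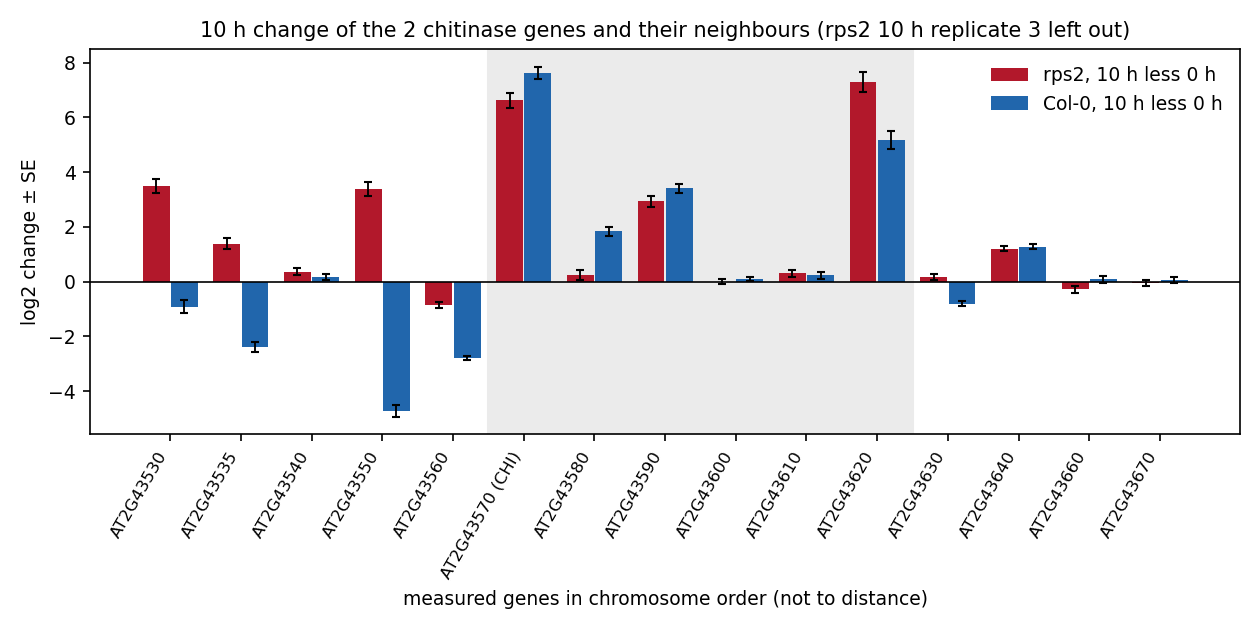
Log2 change between 0 and 10 h ± SE (vertical axis) in rps2 (red) and Col-0 (blue) of the 15 measured genes around the stretch, in chromosome order and not to distance; shading marks the stretch from CHI to AT2G43620. Both ends of the stretch and AT2G43590 are high in both genotypes, AT2G43600 and AT2G43610 lie near 0, and AT2G43550 and AT2G43535 point in opposite directions in the genotypes.

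The wider chitinase list held 24 genes, 14 of family 19 and 10 of family 18, and apart from CHI and AT2G43620 it had 13 measured members. In Col-0 6 of these 13 rose at 6 h, where 25.5% of all probe sets did, none fell and 7 did not pass. Their median was 0.34, against -0.04 over all probe sets. At 10 h, where 29.2% of all probe sets rose and 30.5% fell, the counts were again 6, 0 and 7, with a median of 0.23 against 0.0011, while on the poly-A scale the same comparison gave 6 up and 7 down. The family 19 genes AT3G47540, AT1G02360 and AT4G01700 rose at 10 h by 5.60 ± 0.69, 4.56 ± 0.18 and 3.86 ± 0.68 (limma adjusted p = 1.03e-05, 3.28e-10 and 2.51e-04). ChiC (AT4G19810), a class V chitinase of family 18, rose by 4.42 ± 0.35 (limma adjusted p = 1.53e-07). CHI rose more than any of the 13, and AT2G43620 ranked between AT3G47540 and AT1G02360.

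In rps2 at 10 h, limma called 0 of the 13 when every array was kept, as it called 0% of all probe sets. Of the 13, 5 had an unadjusted p under 0.05, and array weights called 5 and repeated quantile normalisation 4. Shares over all probe sets are not given for these last counts, so they do not show a response particular to chitinase genes. Without replicate 3, 4 rose, 1 fell and 8 did not pass (median 0.07, against -0.07 over all probe sets), where 21.2% of all probe sets rose and 26.9% fell. AT3G47540, AT4G01700 and ChiC rose by 3.39 ± 0.09, 3.36 ± 0.26 and 1.29 ± 0.26, AT2G43590 was the fourth, and AT4G19820 fell by 1.19 ± 0.18 (limma adjusted p of 6.13e-04 or lower for all). The change of AT1G02360 in rps2 was 0.07 ± 0.19 (adjusted p = 0.813 by limma), and the gene was already higher in rps2 than in Col-0 at 0 h by 2.10 ± 0.18 (limma adjusted p = 1.03e-05). It ranged from -0.20 to 0 on the rps2 10 h arrays and from -0.65 to 0.26 at 0 h, while in Col-0 it ranged from -2.46 to -2.19 at 0 h, 2.13 to 2.26 at 6 h and 2.03 to 2.39 at 10 h. At 10 h, 6 of the 13 were lower in rps2 than in Col-0 without replicate 3, as were 29.6% of all probe sets, and none was higher. On the poly-A scale with all arrays kept, 4 were lower and 7 higher. AT2G43620, described above, stood higher in rps2 than in Col-0 without replicate 3.

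**Figure D4:**
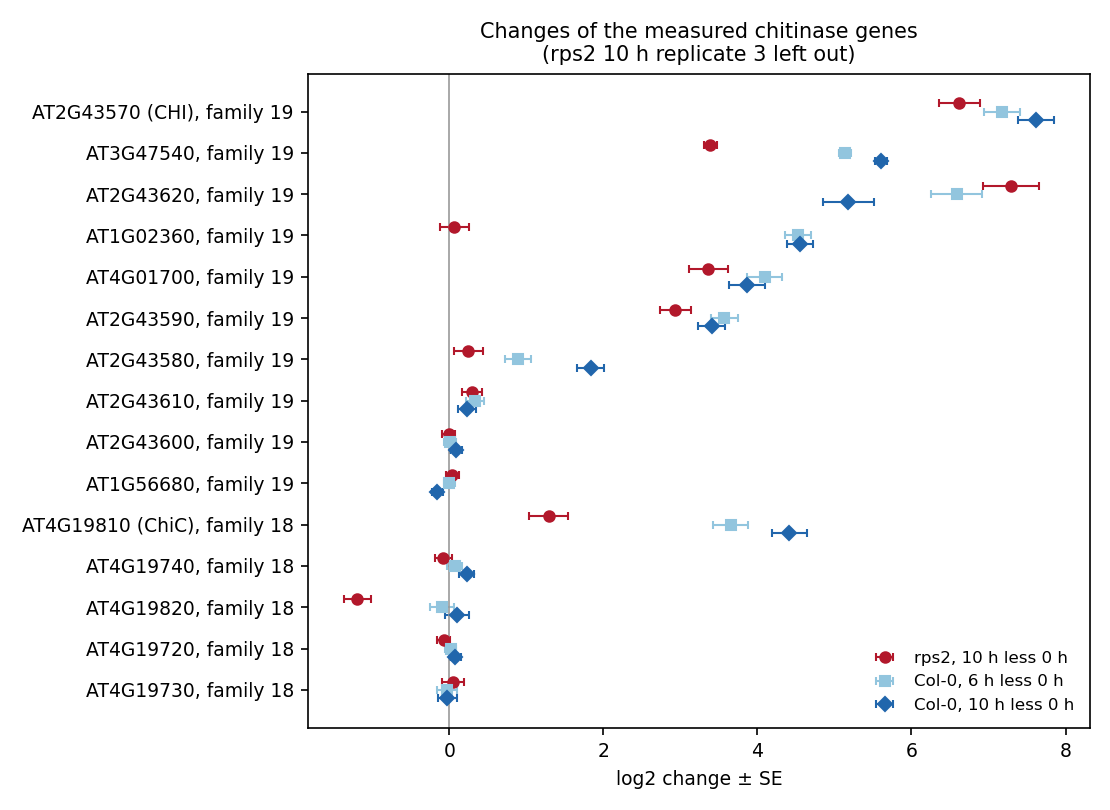
Log2 change ± SE (horizontal axis) of the 15 measured chitinase genes (vertical axis), for rps2 at 10 h against 0 h (circles), Col-0 at 6 h (squares) and Col-0 at 10 h (diamonds) against 0 h, from the fit without rps2 10 h replicate 3. CHI and AT2G43620 were chosen for their rise in rps2, so their place as the largest rps2 changes is no finding. AT1G02360 stood at 0.07 in rps2 and 4.56 in Col-0 at 10 h, and most family 18 genes lie near 0.

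Genes of chitin perception and of defence output were measured sparsely, and their counts stand beside the 29.2% of all probe sets that rose in Col-0 at 10 h. Of 13 listed for chitin perception 2 were measured and both rose in Col-0 at 10 h: the receptor-like kinase gene BIK1 by 4.03 ± 0.20 and AT5G18610 by 0.56 ± 0.07 (limma adjusted p = 2.05e-09 and 7.30e-06). Of 14 listed pathogenesis-related genes other than chitinases 6 were measured, of which 2 rose in Col-0 at 10 h, AT4G16260 by 5.55 ± 0.49 and the defensin gene LCR67 by 4.05 ± 0.34, and 4 did not pass. PDF1.2, a defensin gene known to respond to jasmonate and ethylene, was at -1.08 ± 0.64 (adjusted p = 0.171 by limma). In rps2 without replicate 3, AT4G16260 rose by 1.93 ± 0.31 and LCR67 was at 0.28 ± 0.35 (limma adjusted p = 8.98e-05 and 0.56). In that comparison 2 of the 6 rose, 1 fell and 3 did not pass, where 21.2% of all probe sets rose and 26.9% fell; the other that rose was the defensin gene PDF1.2b, by 0.64 ± 0.24 (limma adjusted p = 0.0351).

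Hormone genes rose in the same leaves. Of 17 genes listed for salicylic acid and N-hydroxypipecolic acid 6 were measured, and all 6 rose at 10 h, with a median of 4.44 in rps2 without replicate 3 and 5.03 in Col-0. Of 23 listed for jasmonate and ethylene 4 were measured, of which 3 rose in rps2 without replicate 3 (median 6.60) and 4 in Col-0 (median 6.33). Over all probe sets, 21.2% rose in the rps2 comparison and 29.2% in the Col-0 one, with medians of -0.07 and 0.0011. The photosynthetic mesophyll markers fell in the same leaves: 6 of the 10 listed were measured and all 6 fell, with a median of -0.97 in rps2 without replicate 3 and -4.21 in Col-0 at 10 h. Of all probe sets, 26.9% fell in that rps2 comparison and 30.5% in Col-0. Both measured epidermis and guard cell genes of 8 listed and the 1 measured vascular gene of 6 fell in Col-0 at 10 h, and the 1 measured senescence gene of 6 rose. In rps2 without replicate 3, 1 epidermis and guard cell gene rose and 1 fell. The vascular gene did not pass there, and the senescence gene rose. With rps2 10 h replicate 3 kept, none of these lists had a call in rps2. The part of these shifts in the chitinase values was not tested.

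The genes whose values followed each member most closely differed between the members. Over the 15 arrays, CHI was most alike to UGT76B1 (Pearson r = 0.996), a glucosyltransferase gene of salicylic acid metabolism, to IDH-VI, an isocitrate dehydrogenase gene (r = 0.996), to the glutaredoxin gene GRX480 (r = 0.995), to the peroxidase gene AT5G64120 (r = 0.994) and to AT4G22980 (r = 0.994). UGT76B1 was higher at 10 h than at 0 h by 7.68 in rps2 without replicate 3 and by 8.30 in Col-0.

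AT2G43620 was most alike to AT1G65500 (r = 0.990), AT3G09490 (r = 0.986), AT2G44065 (r = 0.985), AT4G12500 (r = 0.984) and AT1G43910 (r = 0.983). In Col-0 the values of these 5 at 10 h less those at 6 h were -0.84, -0.76, -0.21, -0.66 and -1.38 on the log2 scale, with no test. The genes most alike to each member were picked on these same arrays, so their changes partly follow from that choice. Taken over the 5 group means instead, 3 of the 5 genes most alike to CHI and 0 of those most alike to AT2G43620 were named again. The members correlated with each other at r = 0.965, below the r of each gene most alike over the 15 arrays. Those genes were picked for the highest r, so this order was largely set by the choice. Of 13511 other probe sets with 1 gene, 400 exceeded r = 0.95 with CHI and 135 with AT2G43620. These correlations are descriptions over 15 arrays that share 5 groups and the same centring.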

How the data were processed

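The authors deposited log2 values made with RMA, per the submitters' processing notes; its version and any later step are not given in the sources used here. All 22810 probe sets had a median of 0 over the 15 arrays, so the deposited log2 values are differences from each probe set's median. They give no depth and do not show where a detection limit lies, and precision is limited by how many arrays there are. Tests ran on 22746 probe sets, after 64 controls were removed. Of these, 13513 were paired with 1 gene, and 13436 were found in the gene table (TAIR10.1).

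A mean per group was fitted to all arrays with limma 3.58.1 in R 4.3.3, with Benjamini-Hochberg adjustment over all tested probe sets, a two-sided threshold of 0.05, 10 residual and 2.31 prior degrees of freedom. An error after ± is a standard error unless SD is written. There were 7 comparisons. Members were named by locus, neighbours by lying within 10 gene entries of the stretch, the chitinase genes by list, up to 4 genes of each other list by the size of their Col-0 10 h change, and the 5 genes most alike by Pearson correlation. The members and lists were chosen with earlier results of these data known. Comparisons of the members on rps2 arrays are given with no test, the 0 h one included although a test had been planned for it. The fits were checked on simulated data with independent normal noise. Its spreads came from the arrays without rps2 10 h replicate 3, so the check does not cover the effect of that array.

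Alternatives were array weights (statmod 1.5.0), a replicate block, robust trended variances, fits restricted to the compared groups, repeated quantile normalisation, centring on medians or on 24 poly-A control probe sets, stricter thresholds and each array left out. Poly-A centring together with rps2 10 h replicate 3 left out was added after seeing the data, as values only. Same-numbered arrays of different groups did not deviate together (30 pairs, r from -0.29 to 0.256, 2 above 0.1). Sequences of the genes were not used here.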

Additional observations from a re-analysis of the deposited data

Results flagged for a closer look

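Of 22 named genes other than CHI and AT2G43620, 9 differed between the genotypes in their 10 h change, by limma's interaction over all arrays, 5 of them above 0 and 4 below. Of all probe sets 22.1% passed above 0 and 22.4% below, so the count is close to the share over all probe sets. Among the chitinase genes the change of rps2 less that of Col-0 was -4.43 for AT1G02360, -3.56 for ChiC, -3.41 for AT3G47540 and -1.69 for AT2G43580. The value of AT3G47540 was -2.21 without rps2 10 h replicate 3 and did not pass after repeated quantile normalisation (-2.35, limma adjusted p = 0.0594), and that of AT2G43580 did not pass on the poly-A scale (-0.32). Among the neighbours of the stretch it was 6.90 for AT2G43550, 3.31 for AT2G43535, 3.30 for AT2G43530, 2.23 for AT2G43560 and 0.94 for AT2G43630. The poly-A spike-in controls were not among the tested probe sets and served for the poly-A centring. They stood at a mean of 0.98 on the Col-0 10 h arrays, above all 12 other arrays.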

How the results depend on the processing

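The Col-0 rises of CHI and AT2G43620 at 6 h and at 10 h passed the threshold under every alternative that gave a p, with values of 6.08 to 7.53 and 5.53 to 6.84 at 6 h and 5.96 to 7.98 and 4.07 to 5.43 at 10 h. Their other comparisons depended on the settings. With only the compared groups fitted, the 10 h against 6 h values passed, at 0.45 for CHI (limma adjusted p = 0.00632) and -1.41 for AT2G43620 (3.10e-04). Array weights gave AT2G43620 -1.39 for that comparison, past the threshold (limma adjusted p = 0.0354), and -1.23 for rps2 against Col-0 at 0 h, a description since those arrays served to choose the gene. The same weights gave CHI 6.46 in rps2 at 10 h against 0 h, -1.85 for rps2 against Col-0 at 10 h and -1.14 for the difference of the changes, and AT2G43620 7.24, 0.88 and 2.11.

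Poly-A centring without rps2 10 h replicate 3, an alternative chosen after seeing the data, gave CHI 6.94, -0.44 and 0.40 for these 3 comparisons and AT2G43620 7.61, 2.27 and 3.51. With one array left out at a time, the same comparisons ranged from 2.99 to 6.62, -5.30 to -1.67 and -4.63 to -0.998 for CHI, and from 3.66 to 7.29, -2.59 to 1.04 and -1.51 to 2.11 for AT2G43620. The genotype difference at 0 h ranged from -0.98 to -0.32 and from -1.51 to -0.82, and AT2G43620 at 10 h against 6 h from -1.57 to -1.19. For the last of these only leaving out rps2 10 h replicate 3 brought a call.

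Of the 13 other chitinase genes, poly-A centring called 13 at 10 h against 0 h in Col-0 (6 up, 7 down). It called 9 at 10 h against 6 h in Col-0, all down, and 4 in rps2 over time, all up. It called 11 between the genotypes at 10 h (7 up, 4 down) and 9 for the difference of the changes (6 up, 3 down). The centring shifts every probe set in a comparison by the same amount, which alone can bring small values past the threshold. Shares over all probe sets are not given on this scale, so the counts do not show a response particular to chitinase genes. At 10 h against 6 h the count was 3 with only the compared groups, 2 with array weights, and 0 both after repeated quantile normalisation and with a log2 change of at least 1. At 0 h 1 passed at an adjusted p of 0.01. In rps2 over time 4 passed with trended variance, 5 with array weights and 4 after quantile normalisation, and between the genotypes at 10 h 3 passed with only the compared groups. With one array left out the counts ranged from 1 to 3 at 10 h against 6 h, from 1 to 4 at 0 h and from 0 to 5 in rps2 over time. Shares over all probe sets are not given beside these counts either, so they do not show a response particular to chitinase genes.

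Poly-A centring turned signs, among them those of called values. One was AT2G43580 at 10 h against 6 h (0.94 over all arrays, limma adjusted p = 0.00232). AT4G19740 was called below 0 over all arrays for rps2 against Col-0 at 10 h. Poly-A centring gave it 0.87 there, past the threshold above 0 (limma adjusted p = 1.01e-04). For Col-0 10 h against 0 h, Col-0 10 h against 6 h, rps2 against Col-0 at 10 h and the difference of the changes it gave -0.999, -1.06, 1.17 and 1.3 for AT4G19720, -0.85, -0.95, 0.87 and 1.11 for AT4G19740, and -0.99, -1.04, 1.15 and 1.26 for AT2G43600. It gave AT2G43610 -0.85 for the first and 1.03 and 1.32 for the last pair, AT4G19820 -0.98 and -0.93 for the first pair, and AT4G19730 -1.11, AT1G02360 -1.08 and AT2G43580 -0.18 at 10 h against 6 h. Poly-A centring shifts every value of these comparisons by -1.08, -1.11, 1.20 and 1.37 in that order. The replicate block changed none of 112 results: the adjusted p of the CHI rise at 6 h was 5.97e-04 with it.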
